A study of Caenorhabditis elegans with 4 samples.

Results

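Chromosome V is one of the 5 autosomes of the nematode Caenorhabditis elegans and the longest of its 6 nuclear chromosomes in these lists. The regions described are all MIS-12 ChIP-seq peaks whose deposited position lies on V. There were 161 of the 694 peaks of replicate 1, 143 of the 746 peaks of replicate 2 and 283 of the 1251 peaks of another list that covers the series as a whole, called the combined list here. How the combined list was made from the samples is not stated. It may share reads with the replicates and is not an independent sample. Chromatin came from wild-type N2 embryos of mixed developmental stage, from a mixed population of males and hermaphrodites at 20 degrees C. The antibody for the precipitation was SDQ2966, a polyclonal one from rabbit, affinity-purified and raised against MIS-12. The labels list 2 ChIP samples and 2 input samples of this single strain and stage, and give no mutant, tagged protein or second antibody. The 2 input samples were not analysed here, so no background level stands beside the peaks. Nothing in the labels says that the replicates came from separate cultures, so their spread may be technical.

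MIS-12 belongs to the Mis12 complex of the kinetochore, which bridges centromeric chromatin and the Ndc80 complex that binds spindle microtubules. The chromosomes of C. elegans are holocentric: centromeric chromatin and kinetochores are spread along the whole chromosome in place of a single centromere. Like the other autosomes, V has a gene-rich centre with little recombination, and arms with more repeats and more recombination. It is also known for large families of chemoreceptor genes and for the tandem array of 5S ribosomal RNA and SL1 spliced-leader genes. The lists give positions in WormBase build WS220, per the file headers, and no annotation of that build was used here. Peaks are therefore named by position, and none is assigned to a gene or to that array.

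The share of peaks on V was close to its share of the sequence. V made up 20.9% of the nuclear length, taking the highest peak end on each chromosome as its length (20924004 bp on V), and held 23.2% of the nuclear peaks of replicate 1, 19.2% of those of replicate 2 and 22.7% in the combined one. The replicates had 7.69 and 6.83 peaks per Mb on V (mean 7.26 ± 0.61, SD, n = 2), with exact Poisson 95% intervals of 6.55 to 8.98 and 5.76 to 8.05. The combined list had 13.5 (12.0 to 15.2). Among the 6 chromosomes V ranked 3, 4 and 2 in these lists. Its ratio to the other 5 was 1.14 (95% interval 0.95 to 1.37) in replicate 1, 0.90 (0.74 to 1.08) in replicate 2 and 1.11 (0.97 to 1.27) in the combined list. No ratio was shown to differ from 1 (exact conditional binomial test, two-sided, adjusted p = 0.304, 0.444 and 0.304). Peaks of a list with gaps of at most 2 kb were also joined into loci, since neighbours are not independent and p-values from tests that count them singly are too small. The number of loci on V was 99 for replicate 1, 82 for replicate 2 and 169 for the combined list, and V ranked 2 among the chromosomes in loci per Mb in each. The ratios for loci were 1.12, 1.13 and 1.09 (exact conditional binomial test, adjusted p = 0.444 for each). Adjusted p-values are by Benjamini-Hochberg over 18 tests. Intervals cover counting error only, and the number of reads behind a peak is unknown.

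The strongest peaks on V were found in all 3 lists. Each peak carries a score set by the authors, whose definition is not stated. It ran from 1.39 to 50.3 in the combined list and from about 50 to a value of 3100 in both replicates, which 4 peaks of replicate 1 and 9 of replicate 2 reached exactly. The highest combined peak lay at 1637827 to 1639093 (1267 bp, score 50.3), where replicate 1 scored 1069 and replicate 2 scored 3100. Next came 6942020 to 6942973 (954 bp, score 46.7), with 553 in replicate 1 and 2386 in replicate 2. Both had the higher score in replicate 2. A peak at 1104537 to 1105246 (710 bp) had 924 and 1635 in the replicates. The peak at 4333143 to 4336702 (3560 bp, score 42.2) stood at 3100 in both, and the peak at 14768113 to 14769768 (1656 bp, score 38.9) at 2571 and 2423. At the last of these positions the replicates had similar scores. At 4333143 both stood at 3100, the highest score on V in each replicate, so equal scores there need not mean equal strength.

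The other members of the first 10 included 2 peaks of a single group, at 17392145 to 17393246 (1102 bp, score 40.6) and at 17389618 to 17390217 (600 bp, score 37.1). Their scores were 340 and 316 in replicate 1, and 808 and 681 in replicate 2. These are the lowest replicate 1 scores among the first 10, so the rank in the combined list and the rank in a replicate were not the same thing. The remaining members were a region of 8182 bp at 7916853 to 7925034 (score 38.4), a peak at 14755438 to 14757474 (score 36.8) and one at 264974 to 267292 (score 35.2). Of the 25 highest combined peaks on V, 25 overlapped a peak of both replicates by at least 1 bp. Of the 50 highest it was 48, and of the 100 highest 63.

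Most peaks on V were narrow, and a few wide regions carried much of the covered sequence. The median width was 342 bp in replicate 1, 293 bp in replicate 2 (mean of both 317.5 ± 34.6, SD, n = 2) and 275 bp in the combined list. The middle 50% of peaks spanned 238 to 707 bp, 184.5 to 745 bp and 183 to 509.5 bp. Peaks of under 500 bp made up 62.1%, 62.9% and 74.2%. In contrast, 15, 12 and 13 peaks were 2000 bp or wider, and these held 46.0%, 44.7% and 33.1% of the 126 kb, 104 kb and 154 kb covered. Neither trait was particular to V. On the other chromosomes the median widths were 328, 293 and 272 bp, and such wide peaks held 42.3%, 37.7% and 38.7% of the covered sequence. Score rose with width in each list. In the combined list the median score was 3.61 for the 87 peaks under 200 bp, 5.16 for the 123 peaks of 200 to under 500 bp, 9.50 for the 60 peaks of 500 to under 2000 bp and 34.5 for the 13 widest. In replicate 1 the same classes had medians of 60.0, 83.8, 252 and 1627, and in replicate 2 they had 61.0, 104, 488 and 3100.

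**Figure D1:**
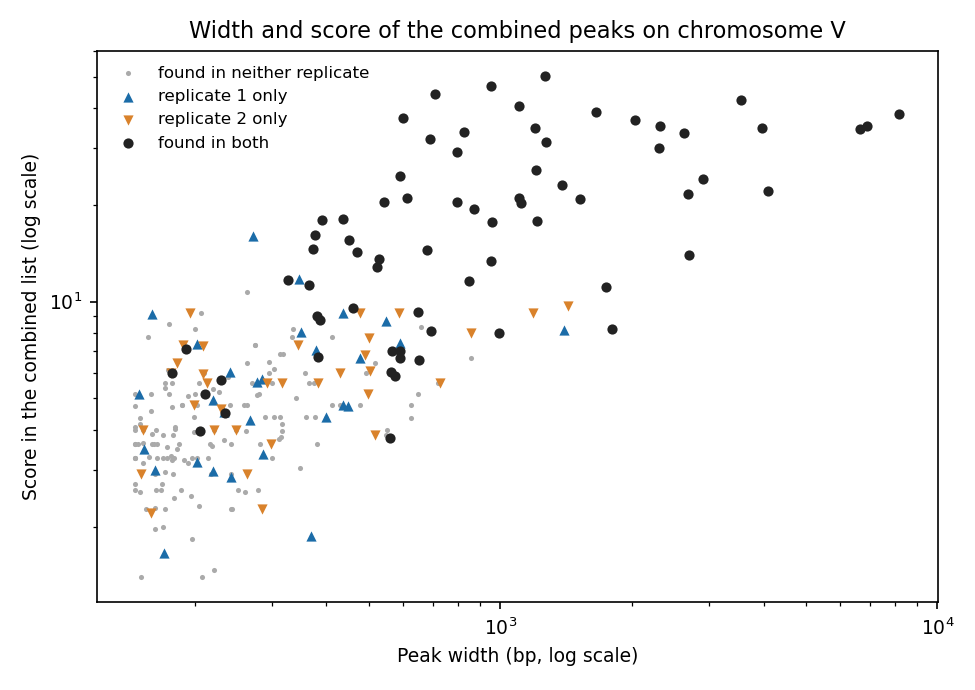
Width (bp) against score of the 283 combined peaks on chromosome V, both on log scales, marked by the replicates in which an overlapping peak was found. All 13 peaks of 2000 bp or more were found in both replicates, and the 150 peaks found in neither were at most 855 bp wide with scores of at most 10.7.

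The 5 widest combined peaks differed in how closely their edges matched those of the replicates. The region in the middle of V ran from 10605600 to 10612490 in the combined list (6891 bp, score 35.2), from 10605604 to 10612509 in replicate 1 and from 10605616 to 10612542 in replicate 2, and scored 3100 in both replicates. Its edges thus lay within a small fraction of its width in the 3 lists. The 8182-bp region at 7916853 was a single peak only in the combined list. In replicate 1 it was split into 4 peaks with gaps of 4 to 14 bp, which together covered 8137 bp (highest score 1627), and in replicate 2 into 2 peaks that covered 8156 bp and both scored 3100. Another wide region followed to the right, where combined peaks at 17119924 to 17126588 (6665 bp, score 34.5) and 17128141 to 17132110 (3970 bp, score 34.6) stood next to each other. The second of them did not keep its left edge, which lay at 17126753 in replicate 1, where it was 1 peak of 5407 bp, and at 17127176 in replicate 2, where it was split into 2 peaks. Over both peaks and their neighbours, replicate 1 covered 14056 bp with 5 peaks between 17115378 and 17132159, and replicate 2 covered 13581 bp with 5 peaks between 17115395 and 17132130. The last of the 5 widest combined peaks lay at 9431318 to 9435410 (4093 bp, score 22.1). It was set against 3 peaks of replicate 1 with a highest score of 951, and 2 of replicate 2 with a highest score of 2281. Of the 283 combined peaks, 81 overlapped a single replicate 1 peak and 19 overlapped several. For replicate 2 the numbers were 82 and 22, and a combined peak overlapped at most 4 peaks of a replicate. The remaining combined peaks overlapped none, so they could not be split. Repeated sequence and copy number in these wide regions were not tested, and input DNA was not examined at them.

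Most of the peaks on V in each replicate had a counterpart in the other. It was 91 of 161 replicate 1 peaks (56.5%, Wilson 95% interval 48.8 to 63.9), against a background of 60.8% over the whole list, and 83 of 143 replicate 2 peaks (58.04%, 49.8 to 65.8), against 56.2%. The difference between V and the other 5 nuclear chromosomes was -5.58 percentage points in replicate 1 and 2.23 in replicate 2, and neither was significant (Fisher's exact test, two-sided, adjusted p = 0.444 and 0.769). By loci, 48 of 99 in replicate 1 (48.5%) and 49 of 82 in replicate 2 (59.8%) had a counterpart, against 62.5% and 74.1% on the other chromosomes. These shares were lower by unadjusted Fisher's exact tests (p = 0.0145 and 0.0181) but did not pass adjustment (adjusted p = 0.0523 and 0.0544). The window from 8 to 9 Mb described below was chosen after the data were seen, for its excess of replicate 1 peaks. Without it, the difference for replicate 1 was 2.13 percentage points by peaks (Fisher's exact p = 0.693), with the opposite sign. By loci it was -9.09 percentage points (Fisher's exact p = 0.141). By covered sequence, the replicates had 85.4 kb of V in common, which is 67.8% of the bases of replicate 1 and 82.04% of those of replicate 2.

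Sharing rose with score on V. In replicate 1 the share found in replicate 2 was 17.1% (7 of 41) in the lowest quartile of scores, 50% (20 of 40) and 62.5% (25 of 40) in the next, and 97.5% (39 of 40, Wilson 95% interval 87.1 to 99.6) in the highest. In replicate 2 the counts were 5 of 36, 14 of 36, 28 of 35 and 36 of 36 (interval for the highest quartile 90.4 to 100%). Wide peaks followed the same order, with 13 of 15 peaks of 2000 bp or more shared in replicate 1 and 12 of 12 in replicate 2. The unshared peaks were mostly narrow and weak. Their median width and score were 258.5 bp and 69.2 in replicate 1, and 196.5 bp and 66.9 in replicate 2, against 555 bp and 173 and 599 bp and 323 for the shared ones.

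**Figure D2:**
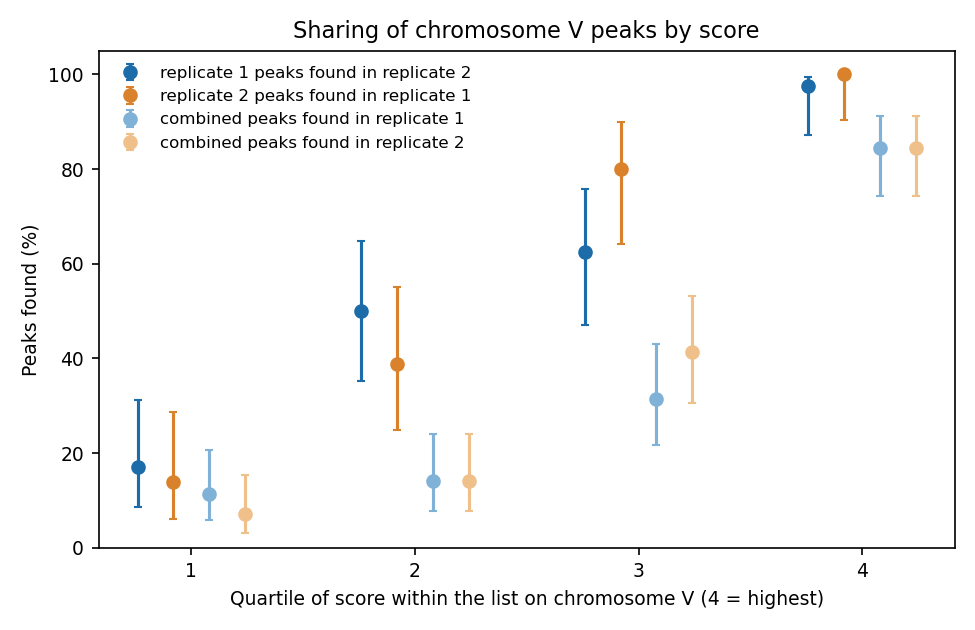
Share of chromosome V peaks (%) with an overlap of at least 1 bp in another list, by quartile of score within their own list. Points are shares and bars Wilson 95% intervals, and in the highest quartile 39 of 40 replicate 1 peaks and 36 of 36 replicate 2 peaks were found in the other replicate.

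The single exception in the highest quartile of replicate 1 was a region of 6508 bp at 3434614 to 3441121 with a score of 745. Replicate 2 had no peak there, and the combined list had 3 peaks, none with a score above 5.17. The next 4 strongest replicate 1 peaks without a counterpart lay near each other, at 8895661 to 8896215 (score 228), 8853602 to 8854144 (208), 8699282 to 8702932 (177, 3651 bp wide) and 8891846 to 8892352 (168). All 4 were in the same 1-Mb window. The strongest replicate 2 peaks without a counterpart were spread over V instead, at 19365670 to 19366189 (score 274), 5640427 to 5640988 (213), 1712973 to 1713381 (201), 19933644 to 19934009 (175) and 2291572 to 2291923 (124). Each of these 5 was overlapped by a combined peak, with scores of 7.96 to 9.20. The peak at 1712973 lay between replicate 1 peaks at 1712624 to 1712947 and 1713772 to 1714080, under the same combined peak. It was thus unmatched by overlap, although replicate 1 had peaks at that locus.

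On V, the window from 8 to 9 Mb held the largest difference between the replicates in number of peaks. There were 24 replicate 1 peaks in it, which formed 11 loci between 8316269 and 8898106, against 3 replicate 2 peaks that formed 2. The combined list had 20, of which 10 overlapped a replicate 1 peak and 2 a replicate 2 peak. Of the 24 replicate 1 peaks, 3 overlapped a replicate 2 peak and 12 a combined peak. Among 103 windows of 1 Mb on the 6 nuclear chromosomes, this was the one with the greatest excess of replicate 1 over replicate 2, at 21 peaks, and the next, on II, had an excess of 9. Replicate 2 had the excess in other windows, the largest with 20 replicate 1 and 47 replicate 2 peaks from 7 to 8 Mb on III, and 15 and 33 from 6 to 7 Mb on IV. The replicate 1 peaks of the window had a median width of 420 bp and a median score of 87.2 (50.1 to 228). The median over all replicate 1 peaks on V, these included, was 96.6. None of them reached the highest quartile of replicate 1 scores on V, which began at 243. The largest loci of the window held 4 peaks each, at 8328007 to 8330387 and 8847420 to 8850814. The first of these was the only one of the 11 loci that replicate 2 also had, with 2 peaks that scored 54.4 and 69.6. Without this window, 64.2% of replicate 1 peaks on V were found in replicate 2 (55.9 to 71.8), in place of 56.5%. The window was picked for its excess of replicate 1 peaks, so this rise follows from the choice.

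**Figure D3:**
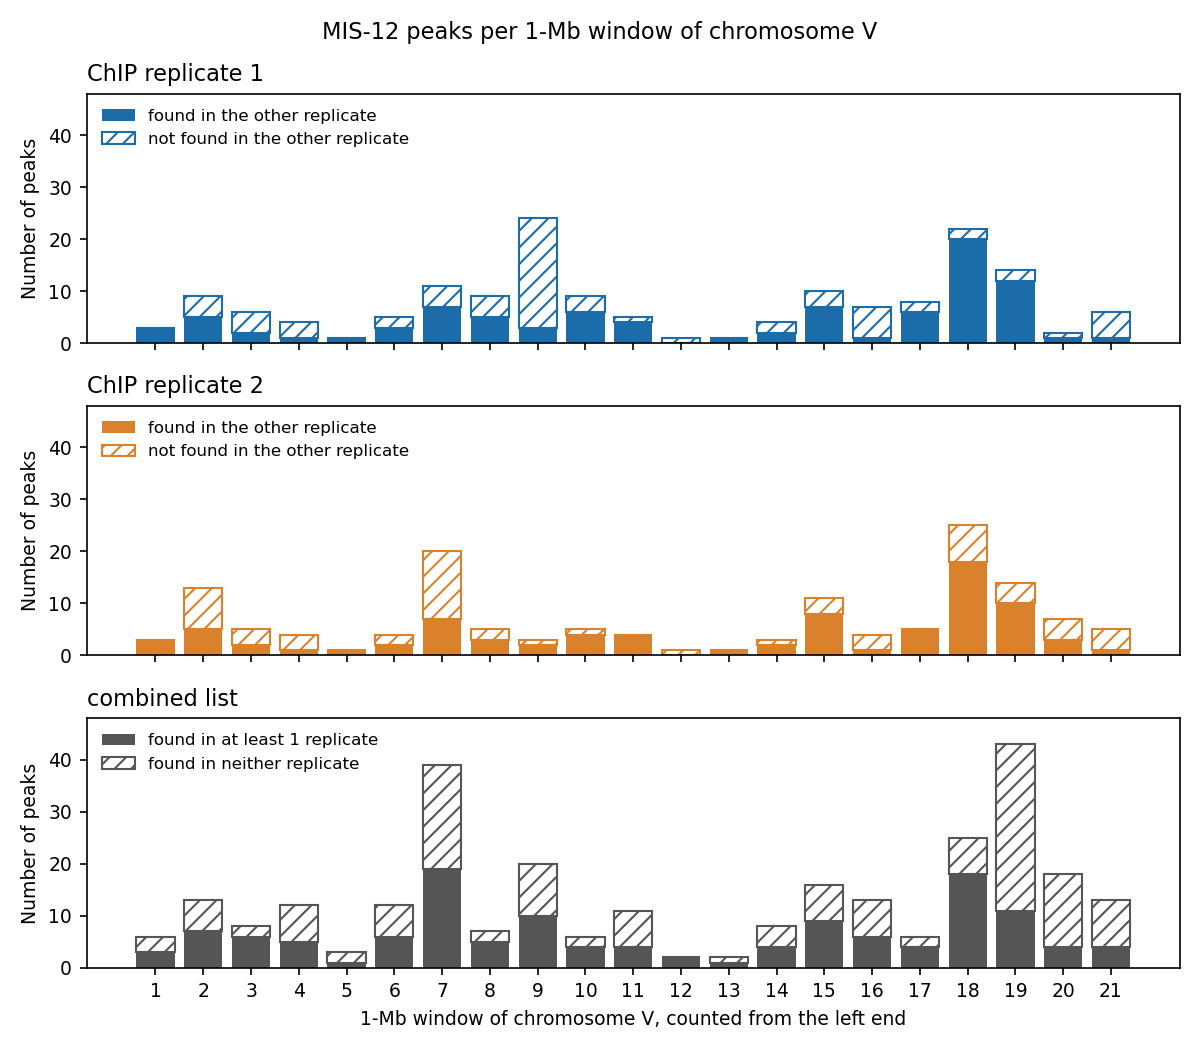
Number of peaks in each of the 21 windows of 1 Mb along chromosome V, counted from the left end, in the 3 lists. Filled bars are peaks found in the other replicate (for the combined list, in at least 1 replicate) and hatched bars are those that were not; window 9 held 24 replicate 1 peaks, 21 of them without a counterpart, and 3 replicate 2 peaks.

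Along V, peaks were unevenly placed, and each list had its highest count of peaks in the right section. With V divided into 3 sections of equal length, the combined list had 93 peaks in the left section (13.3 per Mb), 56 in the middle section between 6.97 and 13.9 Mb (8.03 per Mb) and 134 in the right section (19.2 per Mb). Replicate 2 had 50, 22 and 71, and replicate 1 had 39, 53 and 69. Replicate 1 therefore lacked the low middle of the other 2 lists, of which the combined one may share reads with the replicates. Counted as loci, the sections held 33, 32 and 34 in replicate 1, 31, 17 and 34 in replicate 2 and 51, 41 and 77 in the combined list, from left to right. The loci of the replicates were thus nearly as many in the left section as in the right. The ratio of the middle section to both ends was 0.36 (95% interval 0.22 to 0.58) in replicate 2 and 0.49 (0.36 to 0.66) in the combined list (exact conditional binomial test, two-sided, adjusted p = 1.69e-05 and 9.61e-06), and 0.98 (0.69 to 1.38, adjusted p = 1) in replicate 1. Counted as peaks, the share in the middle section was 32.9% in replicate 1 and 15.4% in replicate 2 (Fisher's exact test, p = 0.000488, adjusted p = 0.00325 over 20 tests). Counted as loci, it was 32.3% and 20.7%, a difference that did not pass (Fisher's exact test, p = 0.0940, adjusted p = 0.235 over 20 tests). Both tests were added after the data were seen, and the one on peaks counts grouped neighbours singly. Without the window from 8 to 9 Mb the difference in peaks fell from 17.5 to 7.60 percentage points (Fisher's exact p = 0.113). The ratio of middle to ends in replicate 1 became 0.63 (0.40 to 0.95, exact binomial p = 0.0250). In loci, that ratio was 0.73 (0.43 to 1.21, exact binomial p = 0.245). The window was chosen after the data were seen, for its excess of replicate 1 peaks, and lies in the middle section. Leaving it out lowers both values by design, so these p-values cannot decide whether the middle is low.

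Counted as loci, the low middle was weaker. The ratios for the 3 lists, in the same order of replicate 1, replicate 2 and combined, were 0.96, 0.52 and 0.64, and none passed adjustment (exact conditional binomial test, adjusted p = 0.969, 0.0523 and 0.0523). With the middle 50% of V in place of its middle section, the ratios for peaks were 0.72 in replicate 2 and 0.85 in the combined list, with intervals that included 1 (0.51 to 1.02 and 0.67 to 1.08). With 6 to 17 Mb as the middle they were 0.69 (0.49 to 0.97) and 0.77 (0.60 to 0.97). For the middle section and the higher-scoring 50% of each list they were 0.50 (0.25 to 0.93) and 0.49 (0.31 to 0.75). All of these intervals count grouped neighbours singly. In the replicates, covered sequence was spread differently from the number of peaks. There the middle section had 44.7 and 29.5 kb, against 36.6 and 28.4 kb in the left section and 44.7 and 46.2 kb in the right section, so that its fewer peaks in replicate 2 covered as much sequence as the left section. In the combined list covered sequence followed the order of the peak counts, with 44.9 kb in the left, 37.1 kb in the middle and 72.1 kb in the right section. The longest stretch without a peak also lay in the middle, from 11314372 to 12509941 in replicate 1 (1195568 bp), from 11274582 to 12509931 in replicate 2 and from 11314314 to 12376653 in the combined list.

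By 1-Mb windows, the most crowded window was from 18 to 19 Mb in the combined list (43 peaks), from 8 to 9 Mb in replicate 1 (24) and from 17 to 18 Mb in replicate 2 (25). The fewest peaks fell in the windows from 4 to 5, 11 to 12 and 12 to 13 Mb, with 1 in each replicate list. The combined list had 3, 2 and 2 there. Over the 20 complete windows the counts of the replicates correlated with Spearman rho = 0.71 and Pearson r = 0.61. Without the window from 8 to 9 Mb, chosen for its difference between the replicates, these were 0.87 and 0.88. They describe windows of the same chromosome, which are not independent.

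Peaks on V came in tight groups. In replicate 1, 88 of 161 peaks (54.7%) lay in loci of several peaks, in replicate 2 it was 91 of 143 (63.6%) and in the combined list 165 of 283 (58.3%). Within such loci the median gap between neighbouring peaks was 165 bp, 162 bp and 314 bp, whereas loci lay a median of 148 kb, 164 kb and 77.0 kb apart. The number of loci with 5 or more peaks was 3, 4 and 7. Grouping was not particular to V. Its 161, 143 and 283 peaks formed 99, 82 and 169 loci. On the other chromosomes 533 peaks formed 336 loci in replicate 1, 602 formed 274 in replicate 2 and 965 formed 585 in the combined list.

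The groups differed in how well the lists agreed on them. The group with the most peaks in both replicates ran from 17384116 to 17394381 in the combined list, with 11 peaks in 10266 bp and scores of 3.78 to 40.6. Replicate 1 had 13 peaks there (69.5 to 785, median 98.7) and replicate 2 had 14 (58.02 to 2164, median 291). All 13 replicate 1 peaks overlapped a replicate 2 peak, and the replicate 2 score was the higher in all 13. In the other direction 11 of the 14 replicate 2 peaks had a counterpart, and 10 of the 11 combined peaks were found in both replicates.

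The group with the most peaks in the combined list, 19 peaks from 6075362 to 6089295, was of the opposite kind. Replicate 1 had 2 peaks there (highest score 91.1) and replicate 2 had 6 (highest score 351). Of the 19 combined peaks, 14 overlapped neither replicate, and their group had a median score of 4.76 and a highest score of 20.4. A group of 7 combined peaks from 18719428 to 18723109 and one of 5 from 18055976 to 18058460 had no replicate peak at all. Another group of 5, from 14586121 to 14588774, had a single replicate 2 peak with a score of 55.8. Groups of 6 (6937566 to 6943676) and 5 (6171844 to 6175031) combined peaks were matched by 2 peaks each in replicate 1, and by 5 and 2 in replicate 2.

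**Figure D4:**
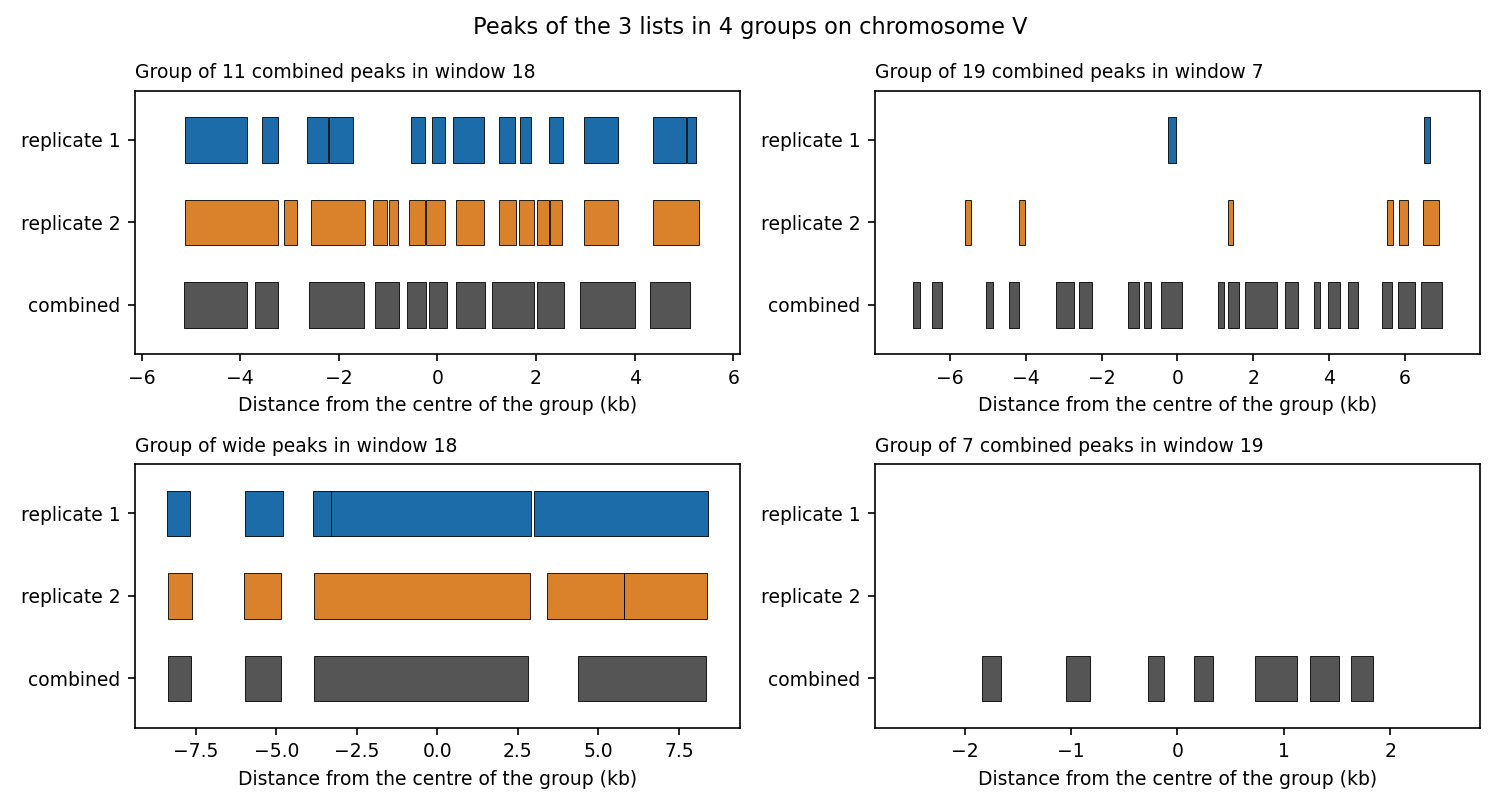
Extent of each peak (bars) in the 3 lists in 4 groups on chromosome V, by distance from the centre of the group (kb). The group of 11 combined peaks held 13 replicate 1 and 14 replicate 2 peaks, the group of 19 held 2 and 6, the group of wide peaks held 5 and 5, and the group of 7 held none.

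Combined peaks without any replicate peak were frequent on V, as elsewhere. Of the 283, 71 were found in both replicates (25.1%, Wilson 95% interval 20.4 to 30.4, against a background of 27.0% over the whole list), 29 in replicate 1 only, 33 in replicate 2 only and 150 in neither (53.0%, 47.2 to 58.7, background 51.7%). The share found in neither differed from that on the other chromosomes by 1.50 percentage points (Fisher's exact test, adjusted p = 0.771). The combined list was called with MACS v2 and the replicate lists with MACS, no version named. Their thresholds are not given, so a difference in calling cannot be told apart from a difference in signal. These 150 peaks had a median width of 202 bp and a median score of 3.98, against 710 bp and 17.8 for the 71. Peaks found in neither made up a larger share from 18 to 20 Mb than on the rest of V. There it was 46 of 61 combined peaks (75.4%, 63.3 to 84.5), against 104 of 222 (46.8%, 40.4 to 53.4). This stretch was chosen after the values were seen, and the difference was not tested. By 1-Mb windows, such peaks numbered 32 from 18 to 19 Mb and 20 from 6 to 7 Mb. The strongest peaks found in neither were 18056650 to 18056912 (score 10.7), 1258284 to 1258490 (9.20) and 8489277 to 8489451 (8.51).

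Where both replicates had a peak, replicate 2 usually had the higher score. Over 91 replicate 1 peaks paired with the strongest overlapping replicate 2 peak, replicate 2 was higher in 63 (69.2%), with 4 pairs equal at 3100. Dividing the replicate 2 score by the replicate 1 score gave a median of 1.77 (95% interval of the median 1.19 to 2.03). The median was 1.71 (1.16 to 2.03) over the 79 pairs with no score of 3000 or more. The intervals treat pairs as independent, which they are not. On V, 12 replicate 2 peaks each overlapped several replicate 1 peaks, so a replicate 2 score could enter several pairs. Part of the upper range came with splitting. The 3 highest ratios, 29.7, 28.9 and 20.8, belonged to small replicate 1 peaks at 17385690 to 17386006, 9430709 to 9431035 and 9432130 to 9432554. Each was set against a wider replicate 2 peak that also overlapped another replicate 1 peak. Among the 61 pairs in which each peak overlapped only the other, the median ratio was 1.27 (1.06 to 1.79), and the highest was 6.81, at 6088820 to 6088974. The lowest ratios were 0.22 at 6173536 to 6176701 (316 in replicate 1 and 69.1 in replicate 2), 0.33 at 8329796 to 8330387 and 0.44 at 1216310 to 1216705. Spearman's rho of the scores over the 91 pairs was 0.64, a description across peaks that are not independent. With depth and score undefined, the ratio cannot be read as a difference in enrichment.

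**Figure D5:**
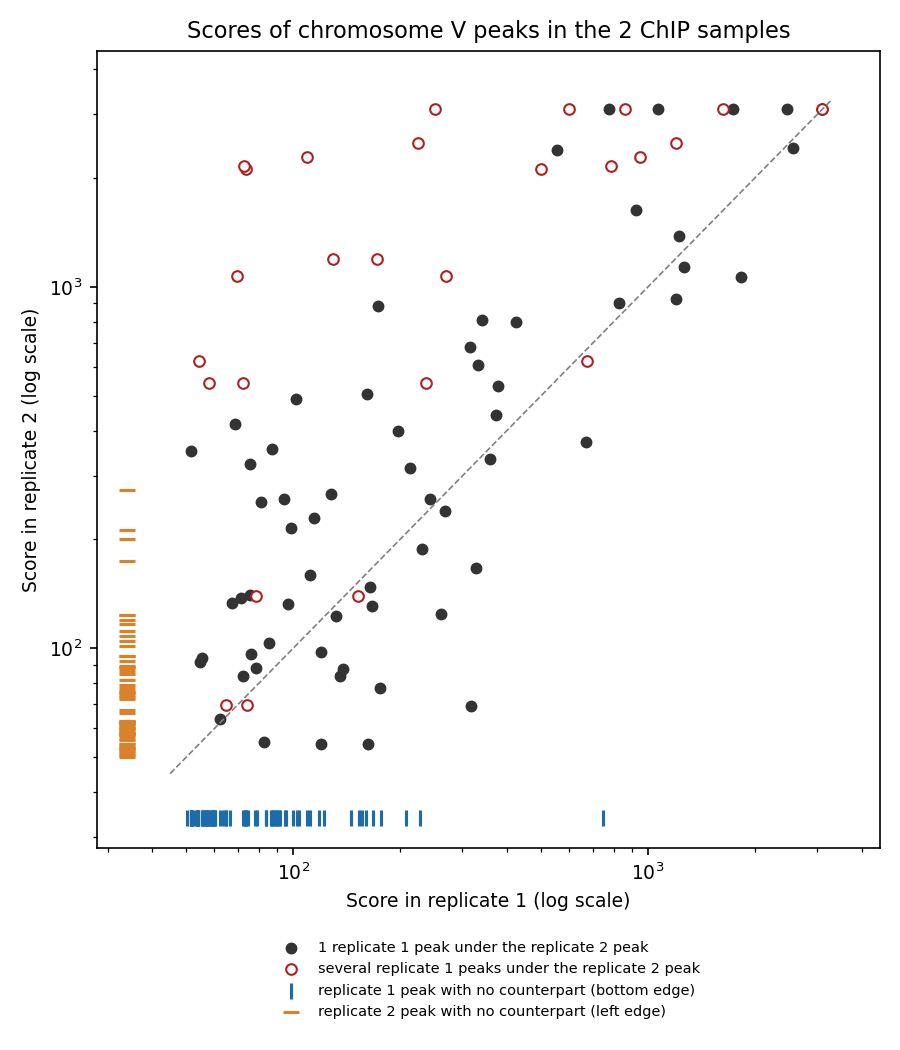
Score in replicate 1 against score in replicate 2 (log scales) for the 91 overlapping pairs on chromosome V, with the dashed line at equal scores. Open circles mark replicate 2 peaks that overlapped several replicate 1 peaks, and ticks at the edges are the 70 replicate 1 and 60 replicate 2 peaks without a counterpart, of which one, at a replicate 1 score of 745, stands apart.

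At the left end of V all 3 lists began with a narrow peak, from base 6 to 298 in replicate 1 (score 138), from base 6 to 342 in replicate 2 (87.4) and from base 1 to 177 in the combined list (6). The last peaks did not match in this way. They lay at 20870370 to 20870526 in replicate 1 (58.4), at 20437653 to 20437916 in replicate 2 (91.8) and at 20923845 to 20924004 in the combined list (3.89). Among peaks matched 1 to 1, the midpoint in the combined list minus that in the replicate had a median of -31.5 bp for replicate 1 (71 pairs) and -24.2 bp for replicate 2 (72 pairs). These differences were -14 and -9 bp in the left section of V, -37 and -36.5 bp in the middle section and -31.5 and -27.5 bp in the right section, all well under the median peak width. Whether the 3 lists use exactly the same build was not settled by them.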

How the data were processed

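MIS-12 was profiled by ChIP-seq in 2 ChIP samples. Per the file headers, the authors called the peaks of each ChIP sample with MACS, no version named, and those of the combined list with MACS v2, all on WormBase WS220. What aligner, depth, threshold, control or pooling they used is not given in the sources used here. The deposited score of each peak has no stated definition, so scores were compared within a list or between the 2 ChIP lists, which share a caller. Positions were used as deposited.

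Rows with chromosome V were taken from each list and matched by at least 1 bp with Python 3.11.15, numpy 2.4.6, scipy 1.17.1, pandas 2.3.3 and statsmodels 0.14.6. Tests were Fisher's exact and exact conditional binomial tests, two-sided, with Benjamini-Hochberg adjustment over the 18 planned tests. Functions were tested on simulated data. Named regions were the highest and widest peaks, the largest loci, the strongest unmatched peaks, the extreme score ratios, the end peaks and the extreme windows. The peaks, regions and tests were chosen with earlier results of these data known. Alternatives were other overlap rules, loci, the higher-scoring 50% of each list, other joining gaps, other middles of V (the middle 50%, and 6 to 17 Mb, rounded from a recombination map recalled from memory) and leaving out a replicate.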

Additional observations from a re-analysis of the deposited data

How the results depend on the processing

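Of 93 recomputed values, 56 kept their direction and their side of the threshold, or moved by less than their error, and 8 changed direction, in each case from a main value that had not passed the test. The window from 8 to 9 Mb and the comparison of the replicates in the middle were chosen after the data were seen, and p-values here are unadjusted. The share of V peaks found in the other replicate moved from 56.5% to 43.5% in replicate 1 and from 58.04% to 49.0% in replicate 2 with 50% reciprocal overlap, and to 67.1% and 81.5% with the higher-scoring 50% of each list. For replicate 1 it was 48.5% in loci and 64.2% without the window from 8 to 9 Mb. The difference of V from the other chromosomes in this share passed 0.05 (Fisher's exact test) in replicate 1 with midpoints within 500 bp (-10.1 percentage points), the higher-scoring 50% (-13.5) and loci (-14.0), and in replicate 2 with the higher-scoring 50% (13.5), loci (-14.3) and loci without the window (-14.1). The main value for replicate 2 was 2.23, so loci turned its direction, and that for replicate 1 turned from -5.58 to 2.13 without the window. Combined peaks found in both replicates made up 15.2% with reciprocal overlap and 32.8% with the higher-scoring 50%. Those found in neither made up 71.4%, 46.7% and, in loci, 46.2%. The difference of V from the others in the latter share turned from 1.50 to -0.61 percentage points with the higher-scoring 50% and to -5.13 in loci. Leaving out 1 replicate gave 63.3% to 64.7%. The ratio of peaks per Mb on V to the others in replicate 2 turned from 0.90 to 1.13 in loci. The ratio of middle to ends was 0.72 in replicate 2 and 0.85 in the combined list with the middle 50% of V, and 0.63 in replicate 1 without the window (0.73 in loci). In replicate 1 it turned from 0.98 to 1.04 with the middle 50% and to 1.12 from 6 to 17 Mb. From 6 to 17 Mb the ratio was 0.69 in replicate 2 and 0.77 in the combined list, with intervals below 1. The difference between the replicates in the middle was 11.6 percentage points in loci, 7.60 without the window and 5.11 with both (Fisher's exact p = 0.0940, 0.113 and 0.456). Peaks in loci of several made up 51.6% and 68.9% of the combined list with gaps of 1 and 5 kb, and 55.4% of replicate 2 with the higher-scoring 50%. Median widths rose to 592, 692 and 478 bp with the higher-scoring 50%. The cause was not tested for any of these changes beyond what each setting leaves out. No paired analysis was possible because the input samples that share the replicate numbers were not analysed here.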
